A study of Mus musculus with 12 samples.

Results

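The specific granule genes of neutrophils are described here across 12 RNA-seq libraries of sorted mouse neutrophils. They are the 9 genes Ltf, Ngp, Camp, Lcn2, Chil3, Cd177, Mmp8, Itgb2l and Ifitm6, found by matching Ensembl identifiers of the count table to the GRCm38 annotation, and each had 1 row among 48709 gene rows. All 9 passed the filter on low counts, which kept 12488 genes with more than 1 CPM in at least 3 libraries, where CPM is the count of a gene scaled to the depth of its library. The set holds genes whose products are stored in specific granules or appear with them as neutrophils mature. Chil3, Itgb2l and Ifitm6 are less tied to that granule than Ltf, Camp, Lcn2 and Mmp8, so the name is used for the set as listed.

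Neutrophils pack their granules in order as they mature in the bone marrow. Azurophil granules are filled first, specific granules next, at the myelocyte and metamyelocyte stages, and gelatinase granules and secretory vesicles last. Messenger RNA for the specific granule proteins is high while the granules are filled and falls as the cell matures, whereas the stored proteins remain and are released at sites of injury, where they bind iron, kill microbes, cut collagen and aid passage through vessel walls.

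Control splenic neutrophils (3 libraries) came from untreated mice, 24-hour neutrophils (4 libraries) from livers taken 24 hours after 1 intraperitoneal injection of carbon tetrachloride (CCl4) at 1 mL/kg in corn oil, and 72-hour neutrophils (5 libraries) from livers taken 72 hours after it. CCl4 is a hepatotoxin that causes acute liver injury followed by repair. All mice were male C57BL/6N of 8 to 10 weeks of age, and all cells were sorted as CD45+, CD11b+, Ly6G high and Ly6C intermediate. The control differs from both liver groups in organ as well as in treatment, so organ, isolation of the cells and injury cannot be told apart in any comparison with the spleen. The spleen libraries serve as the control of both liver groups, so those comparisons are not independent. The labels number the replicates without saying that each came from its own animal, and the p-values measure only the spread between these libraries. In sorted populations such as these, fewer cells that express a gene and less RNA per cell cannot be told apart.

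Each library had between 1267089 and 3017403 counts on genes, and 3 counts, taken as the floor of detection in a library, were thus worth 0.929 to 2.19 CPM. Between 2.71% and 3.18% of the uniquely aligned reads were counted on a gene. The library kit kept the strand of the RNA, and the strand setting of the counting is not given in the sources used here. mt-Nd6, the only protein gene on its strand of the mitochondrial genome, had 505 to 4478 counts, and mt-Co1, on the other strand, 44 to 560, fewer than mt-Nd6 in all 12 libraries. The counts below may therefore be of reads in the orientation opposite to the transcript, a small part of each gene's reads, and a level here is a level of counted reads. Which strand was counted was not tested further. None of the 9 genes shares exon bases with another annotated gene. In 72-hour replicates 2 and 3, 1.91% and 1.98% of reads were unaligned, against 49.6% to 50.7% in the other libraries. Without those 2 libraries, 7 of the 9 genes were called lower at 72 hours, against 287 of all 12057 genes called in either direction.

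The spleen libraries were not alike. Replicates 1 and 2 differed from each other by a chi-square of 2.47 per degree of freedom over their gene counts, against 6.72 to 41.3 in every other pair of libraries of a group, so they differed by more than counting error but by less than any other pair. Spleen replicate 3 was below the mean of replicates 1 and 2 for each of the 9 genes, by 3.13-fold (Mmp8) to 21.5-fold (Camp). The 9 genes took 0.0353% and 0.0384% of the gene counts in 24-hour replicates 1 and 2. In 24-hour replicates 3 and 4 they took 0.00606% and 0.00760%, so the 24-hour libraries were not alike either. The share was 0.00958% to 0.0223% in the 72-hour libraries. It was 0.640% and 0.604% in spleen replicates 1 and 2 and 0.0963% in spleen replicate 3. The results below are therefore also given without spleen replicates 1 and 2, a fit chosen after their values were seen, in which the lone spleen library is assumed to vary like the liver groups.

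The promoters of 4 members are shown because they span the range of changes. Ltf and Ngp had the largest apart from Camp, Chil3 a smaller one and Mmp8 the smallest. The runs are the bases that precede the RefSeq start of the gene in GRCm38.p6, read 5′ to 3′ on the strand of the gene and ended where the annotated gene begins. Capitals mark matches to TTNNGNAA on either strand, a pattern like that bound by C/EBP factors, the family that switches on specific granule genes in maturing neutrophils.
Ltf, chr9:111019042-111019270, plus strand: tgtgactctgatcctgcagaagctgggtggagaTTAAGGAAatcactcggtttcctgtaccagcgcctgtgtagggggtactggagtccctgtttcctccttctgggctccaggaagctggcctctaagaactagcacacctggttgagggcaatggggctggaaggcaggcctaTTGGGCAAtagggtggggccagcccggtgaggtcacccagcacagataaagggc
Ngp, chr9:110419558-110419746, plus strand: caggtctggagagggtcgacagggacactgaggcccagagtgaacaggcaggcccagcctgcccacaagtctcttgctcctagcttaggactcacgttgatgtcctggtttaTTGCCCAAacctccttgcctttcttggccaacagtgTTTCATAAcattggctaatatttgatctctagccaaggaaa
Chil3, chr3:106167565-106167814, minus strand: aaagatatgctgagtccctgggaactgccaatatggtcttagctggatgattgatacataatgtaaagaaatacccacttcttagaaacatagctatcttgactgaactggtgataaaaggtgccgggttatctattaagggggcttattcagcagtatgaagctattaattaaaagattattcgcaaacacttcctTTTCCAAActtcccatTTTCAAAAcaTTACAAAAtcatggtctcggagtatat
Mmp8, chr9:7558179-7558428, plus strand: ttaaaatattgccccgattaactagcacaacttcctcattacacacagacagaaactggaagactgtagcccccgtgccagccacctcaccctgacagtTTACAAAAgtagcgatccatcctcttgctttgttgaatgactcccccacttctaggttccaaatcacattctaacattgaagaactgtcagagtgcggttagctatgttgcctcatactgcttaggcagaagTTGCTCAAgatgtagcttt

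Over the 250 bases before the RefSeq start, TTNNGNAA was found for 8 of the 9 genes and in 36.8% of 32851 promoters of the same length, and Camp was the member without it. For Lcn2 and Ifitm6 the whole window lay inside the annotated gene, which begins before the RefSeq start, and for Camp 161 of the 250 bases did. The Ltf matches lay 217 and 75 bases before the start, and those of Ngp 138, 102 and 11 bases before it, the last inside the annotated gene and not shown. The PU.1 core GAGGAA, searched on both strands, was found for 5 of the 9 genes (Ltf, Lcn2, Cd177, Mmp8 and Itgb2l) and in 23.3% of promoters. The TATA box letters TATAAA, on the strand of the gene, were found for Cd177 and Ifitm6, 40 and 46 bases before the start, and in 7.59% of promoters. No C/EBP match of the 9 genes overlapped a match of another pattern. A match describes letters in the window and says nothing of binding.

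In 24-hour neutrophils, 8 of the 9 genes were called lower than in splenic neutrophils and none was higher, where a call required an adjusted p under 0.05 together with a log2 fold change of 0.5 or more in size. Mmp8 alone was not called. Over all 12488 genes tested, 4.4% were called lower and 5.35% higher. For 4 of the 9 genes, every 24-hour library was below every spleen library, against 13% of all genes. The median log2 fold change was -3.49 over the 9 genes and -0.23 over all genes tested. Without spleen replicates 1 and 2, a fit that called fewer genes over all, the values of all 9 genes were less negative. The log2 fold change was then -6.56 for Ltf and -3.54 for Ngp, and Lcn2 and Ifitm6 turned positive (0.36 and 0.87). DESeq2's Wald test called 5 of the 9 (not Lcn2, Cd177, Mmp8 or Itgb2l), and limma-voom also 5 (not Lcn2, Mmp8, Itgb2l or Ifitm6). Over all 12488 genes, these tests called 1544 and 1200 in either direction.

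In 72-hour neutrophils, all 9 genes were lower than in splenic neutrophils, against 2.71% of all genes called lower and 2.63% called higher. For 7 of the 9 genes every 72-hour library was below every spleen library (Mmp8 and Ifitm6 were the exceptions), against 6.37% of all genes. Their median log2 fold change was -5.15, against -0.02 over all genes tested. Without spleen replicates 1 and 2, where fewer genes over all were called, the log2 fold change was -5.04 for Ltf and -5.09 for Ngp. Ifitm6 turned positive in that fit (0.33). DESeq2's Wald test called all 9, and limma-voom 8, all but Ifitm6. Over all 12488 genes, these tests called 852 and 759 in either direction.

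None of the 9 genes was called between 72-hour and 24-hour neutrophils in edgeR's quasi-likelihood test, and 2 of them, Ngp and Cd177, had an unadjusted p below 0.05. Across all genes in this comparison, 2.84% were called lower at 72 hours and 1.65% higher. For no member did the libraries of the liver groups separate with 72 hours below 24 hours, against 5.02% of all genes. DESeq2's Wald test and limma-voom called no member either, against 951 and 560 of all 12488 genes. With no filter on low counts 5 members were called, against 823 of all 20019 genes. Ltf was then higher at 72 hours and Ngp, Lcn2, Cd177 and Mmp8 lower (lowest edgeR adjusted p = 1.09e-07, for Cd177). These calls rest on that setting. The libraries of the liver groups overlapped for each of these genes, and with the filter Cd177 had an edgeR adjusted p of 0.087.

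**Figure D1:**
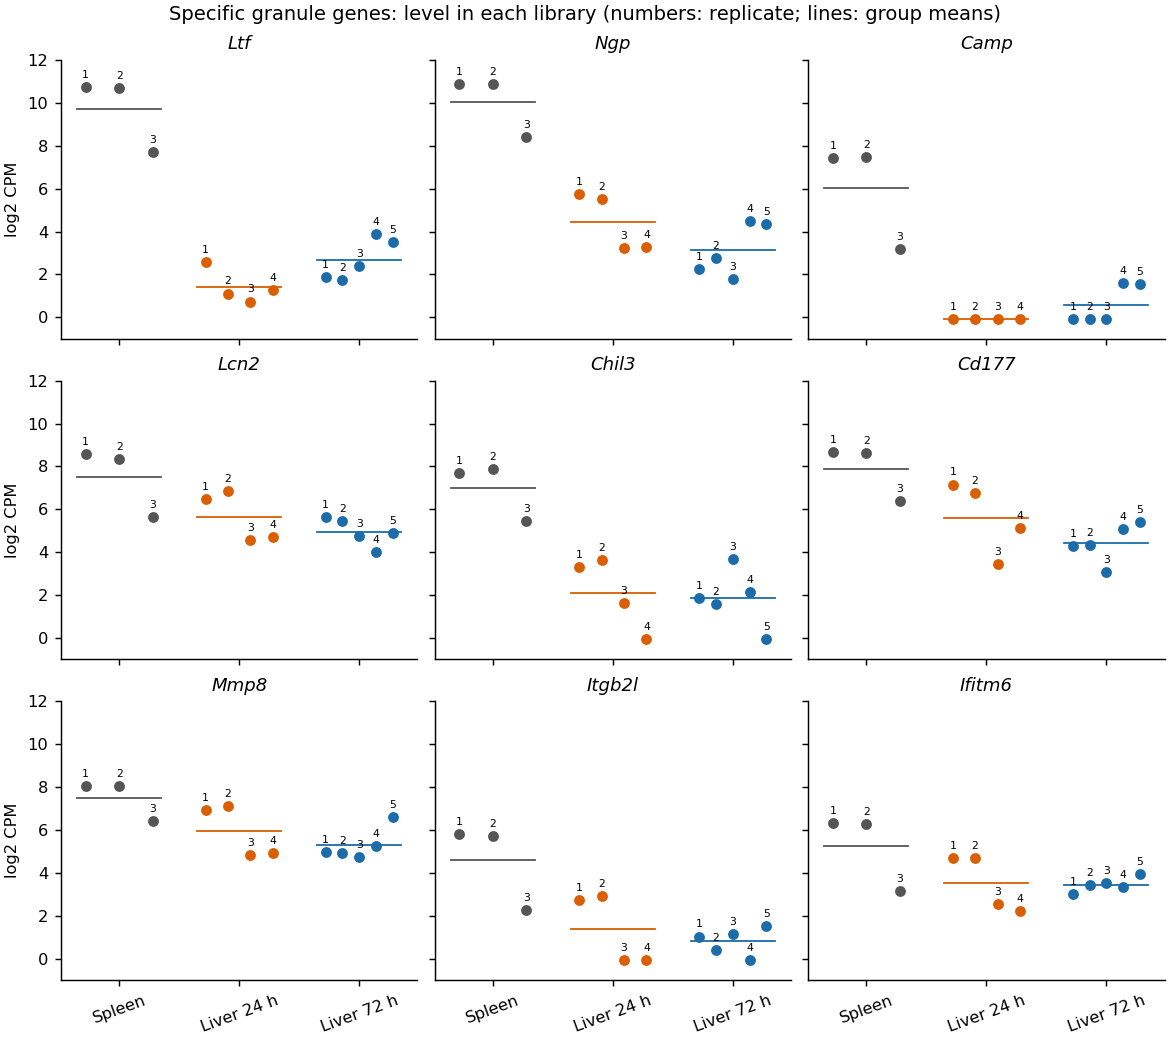
Level of each of the 9 genes in each of the 12 libraries, as log2 CPM with a prior count of 2 on the vertical axis and the groups (spleen, liver 24 h, liver 72 h) on the horizontal axis. Points are libraries, numbered by replicate, and lines are group means. Spleen replicates 1 and 2 lie at the top of every panel, spleen replicate 3 lies lower, and for Lcn2, Cd177, Mmp8, Itgb2l and Ifitm6 some liver libraries reach or pass it.

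Ltf encodes lactoferrin, which binds iron and keeps it from microbes, and had the largest change at 24 hours apart from Camp, for which a bound stands. The gene lies on the plus strand of chromosome 9 at 111019271 to 111042767 (GRCm38). With libraries scaled by TMM, the trimmed mean of M values, its level was 1712, 1637 and 208 CPM in spleen replicates 1 to 3, in order. In the livers it was 5.05, 1.20, 0.707 and 1.46 CPM at 24 hours, from 8, 2, 1 and 2 counts, and 2.71, 2.42, 4.33, 13.9 and 10.4 CPM at 72 hours. Every liver library was below every spleen library, and the highest liver library, 72-hour replicate 4, was 118-fold below the lower of spleen replicates 1 and 2. The log2 fold change against the spleen was -9.07 ± 0.73 (SE; edgeR adjusted p = 5.9e-08) at 24 hours, where the liver libraries had 1 to 8 counts, and -7.56 ± 0.59 (adjusted p = 6.36e-08) at 72 hours. It was -6.56 (adjusted p = 2.77e-05) and -5.04 (adjusted p = 0.000121) without spleen replicates 1 and 2. Apart from Camp, which was at the floor in both liver groups, Ltf was the member whose value was positive between them, with a log2 fold change of 1.51 ± 0.76 from 24 to 72 hours and an adjusted p of 0.262.

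Ngp encodes neutrophilic granule protein, a cathelicidin-related protein of mouse granules, and lies on chromosome 9 at 110419747 to 110423012, between Camp and Ltf. Its levels were 1895, 1891 and 339 CPM in the spleen libraries. At 24 hours they were 53.0, 45.0, 8.49 and 8.75 CPM, and at 72 hours 3.80, 5.87, 2.48, 21.5 and 19.5 CPM. The groups did not overlap with the spleen at either time, and 24-hour replicates 1 and 2 stood above all other liver libraries. The log2 fold change was -5.56 ± 0.69 (edgeR adjusted p = 2.34e-05) at 24 hours and -7.12 ± 0.68 (adjusted p = 8.28e-07) at 72 hours. Leaving out spleen replicates 1 and 2 gave -3.54 (adjusted p = 0.0143) and -5.09 (adjusted p = 0.000928). From 24 to 72 hours the value was -1.56 ± 0.61 (adjusted p = 0.146).

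Camp encodes the cathelicidin antimicrobial peptide precursor and lies on the minus strand of chromosome 9 at 109847379 to 109849617. It had 366, 484 and 25 counts in the spleen libraries, or 170, 175 and 8.04 CPM. No count was seen in the 24-hour libraries, and at 72 hours there were 0, 0, 0, 3 and 3 counts. Both liver groups were at or under the floor in every library, so the level was at least 58.9-fold lower than the spleen mean at 24 hours and at least 77.2-fold lower at 72 hours, with 3 counts per library as the floor, and no fold is given between the liver groups. Camp was called in both comparisons with the spleen (edgeR adjusted p = 5.99e-05 at 24 hours and 2.26e-05 at 72 hours). Against spleen replicate 3 alone, with its 25 counts, the fit gave adjusted p-values of 0.0833 and 0.373.

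Lcn2 encodes lipocalin 2, which takes up bacterial siderophores and so withholds iron, and is also made by injured hepatocytes. It lies on chromosome 2 at 32384633 to 32388252. Levels were 388, 323 and 49.2 CPM in the spleen, 88.9, 114, 22.6 and 25.5 CPM at 24 hours and 48.8, 43.2, 26.0, 15.3 and 28.6 CPM at 72 hours. The 2 liver libraries above spleen replicate 3 were 24-hour replicates 1 and 2. In the tests, Lcn2 had log2 fold changes of -2.0 ± 0.54 (edgeR adjusted p = 0.0205) at 24 hours and -2.96 ± 0.52 (adjusted p = 0.000844) at 72 hours. Against spleen replicate 3 alone the 24-hour value turned to 0.36 (adjusted p = 0.87) and the 72-hour value was -0.60 (adjusted p = 0.83). The 24-hour call was also lost when spleen replicate 1, spleen replicate 2, 24-hour replicate 3 or 24-hour replicate 4 was left out, with adjusted p-values up to 0.133.

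Mmp8 encodes neutrophil collagenase, which cuts fibrillar collagen, and lies on chromosome 9 at 7558456 to 7568485. Levels were 269, 262 and 84.9 CPM in the spleen, 121, 137, 27.6 and 29.9 CPM at 24 hours and 30.4, 29.0, 25.7, 37.5 and 98.0 CPM at 72 hours. It had the smallest change of the 9 genes, and 3 liver libraries (24-hour replicates 1 and 2 and 72-hour replicate 5) were above spleen replicate 3. Mmp8 had log2 fold changes of -1.37 ± 0.51 (edgeR adjusted p = 0.0932) at 24 hours and -2.23 ± 0.49 (adjusted p = 0.00614) at 72 hours. The values against spleen replicate 3 alone were -0.10 (adjusted p = 0.975) and -0.96 (adjusted p = 0.677), and without 72-hour replicates 2 and 3 the 72-hour call was lost.

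Cd177 encodes a surface protein of specific granules and the plasma membrane of neutrophils that pairs with proteinase 3 in humans and binds PECAM-1 on endothelium. It lies on the minus strand of chromosome 7 at 24743983 to 24760311, and 5.51% of its 50-base windows occur in transcripts of BC049730 or Gm4763, which had at most 1 count in any library. Levels were 404, 399 and 82.3 CPM in the spleen, 142, 107, 9.90 and 33.6 CPM at 24 hours and 18.4, 19.0, 7.43, 32.7 and 41.5 CPM at 72 hours. At 24 hours replicates 1 and 2 passed spleen replicate 3 and the groups overlapped, whereas at 72 hours they did not. The log2 fold change was -2.01 ± 0.60 (edgeR adjusted p = 0.0374) at 24 hours and -3.67 ± 0.59 (adjusted p = 0.000418) at 72 hours. Without spleen replicates 1 and 2 these were -0.17 (adjusted p = 0.96) and -1.83 (adjusted p = 0.35). The 24-hour call was lost on leaving out any of 5 single libraries (spleen replicates 1 and 2 and 24-hour replicates 2, 3 and 4), with adjusted p-values up to 0.146. From 24 to 72 hours the value was -1.66 ± 0.56 (adjusted p = 0.087), and it passed the threshold without spleen replicate 3 or without 24-hour replicate 3 (lowest adjusted p = 0.0296).

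Itgb2l encodes an integrin beta subunit like Itgb2, the beta chain of the leukocyte integrins, and lies on the minus strand of chromosome 16 at 96422288 to 96443619. The annotation lists an opposite-strand gene named Igsf5 as overlapping its body, with 0 exon bases shared. The Igsf5 entry whose counts are given below ends 166 bases away. It had 118, 143 and 12 counts in the spleen, 9, 11, 0 and 0 at 24 hours and 2, 1, 4, 0 and 3 at 72 hours, so both liver groups were at or near the floor. As levels these were 54.7, 51.8 and 3.86 CPM in the spleen, up to 6.60 CPM at 24 hours and up to 1.95 CPM at 72 hours. Against the spleen the log2 fold change was -3.49 ± 0.80 (edgeR adjusted p = 0.00755) at 24 hours and -5.23 ± 0.83 (adjusted p = 0.000368) at 72 hours. With spleen replicates 1 and 2 left out it was -0.29 (adjusted p = 0.96) and -2.0 (adjusted p = 0.661). Leaving out spleen replicate 1 alone ended the 24-hour call, at an adjusted p of 0.0521. Igsf5, whose annotated end lies 166 bases from that of Itgb2l on the opposite strand and which was named after its values were seen, was called lower at 72 hours as well (log2 fold change -3.49 ± 0.58, adjusted p = 0.00053), but not without spleen replicates 1 and 2 (-2.31, adjusted p = 0.31).

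Chil3 encodes the chitinase-like protein Ym1, which is also made by alternatively activated macrophages, and lies on the minus strand of chromosome 3 at 106147554 to 106167564. Of its 50-base windows, 26.9% occur in transcripts of Chil4 or Gm6522, which had at most 2 and 12 counts. How many reads from the shared windows were left uncounted was not tested. Levels were 205, 234 and 42.4 CPM in the spleen, 8.83, 11.4, 2.12 and 0 CPM at 24 hours and 2.71, 2.07, 11.8, 3.47 and 0 CPM at 72 hours. No liver library reached a spleen library, and 72-hour replicate 3 was the highest of the livers with 38 counts. Chil3 had log2 fold changes of -4.78 ± 0.73 (edgeR adjusted p = 0.000232) at 24 hours and -5.15 ± 0.67 (adjusted p = 3.21e-05) at 72 hours. Without spleen replicates 1 and 2 the values were -2.87 (adjusted p = 0.132) and -3.28 (adjusted p = 0.106).

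Ifitm6 encodes a member of the interferon-induced transmembrane family found in myeloid cells, and lies on the minus strand of chromosome 7 at 141015699 to 141017924. Levels were 79.3, 77.9 and 8.04 CPM in the spleen, 24.6, 25.2, 4.95 and 3.65 CPM at 24 hours and 7.05, 10.02, 10.5, 9.03 and 14.3 CPM at 72 hours. Of the 9 liver libraries, 6 were above spleen replicate 3. The log2 fold change was -1.89 ± 0.59 (edgeR adjusted p = 0.0465) at 24 hours and -2.43 ± 0.56 (adjusted p = 0.00946) at 72 hours. With both of spleen replicates 1 and 2 left out, the values turned positive, to 0.87 (adjusted p = 0.673) and 0.33 (adjusted p = 0.941). Ifitm6 lost its 24-hour call when any of 6 single libraries was left out, with adjusted p-values up to 0.192, and its 72-hour call without spleen replicate 1 or spleen replicate 2, with adjusted p-values up to 0.088. The 72-hour call was also lost with limma-voom (-1.80, adjusted p = 0.132), without 72-hour replicates 2 and 3 together, and with spleen replicates 1 and 2 summed.

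**Figure D2:**
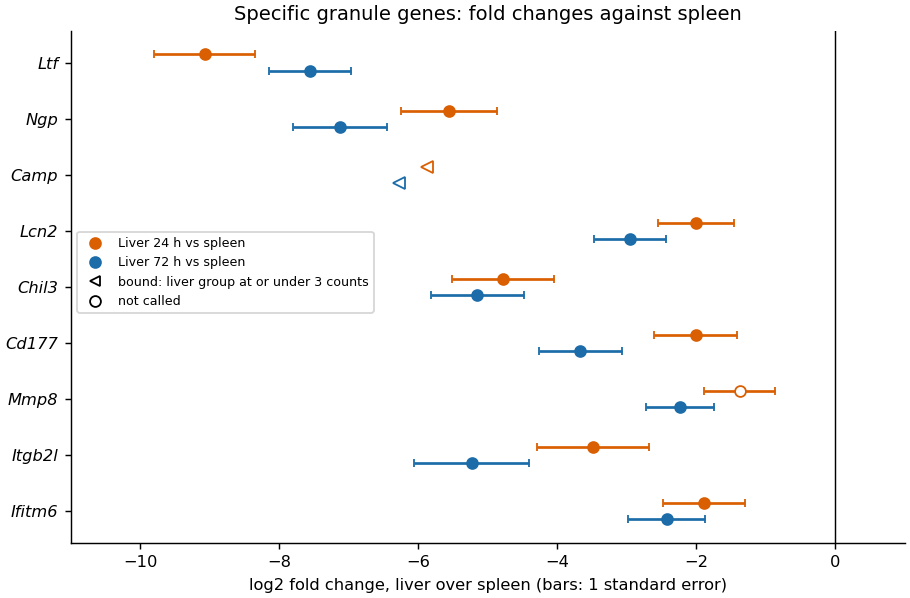
Log2 fold change of each gene, liver over spleen, at 24 hours (orange) and 72 hours (blue), on the horizontal axis, with bars of 1 standard error. Open triangles mark Camp, for which the liver libraries had 3 counts or fewer and the value is a bound, and the open circle marks Mmp8 at 24 hours, which was not called. Values run from -9.07 for Ltf to -1.37 for Mmp8.

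The 9 genes differed in how the liver libraries stood to spleen replicate 3. Ltf, Ngp, Camp and Chil3 were below it in every liver library, and Lcn2, Cd177, Mmp8, Itgb2l and Ifitm6 had 24-hour libraries above it. In spleen replicates 1 and 2, by contrast, each of the 9 genes was above the highest liver library, by 1.92-fold (Mmp8) to 118-fold (Ltf). When spleen replicates 1 and 2 were summed as 1 library, 5 of the 9 genes were called at 24 hours, against 633 of all 12141 genes.

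**Figure D3:**
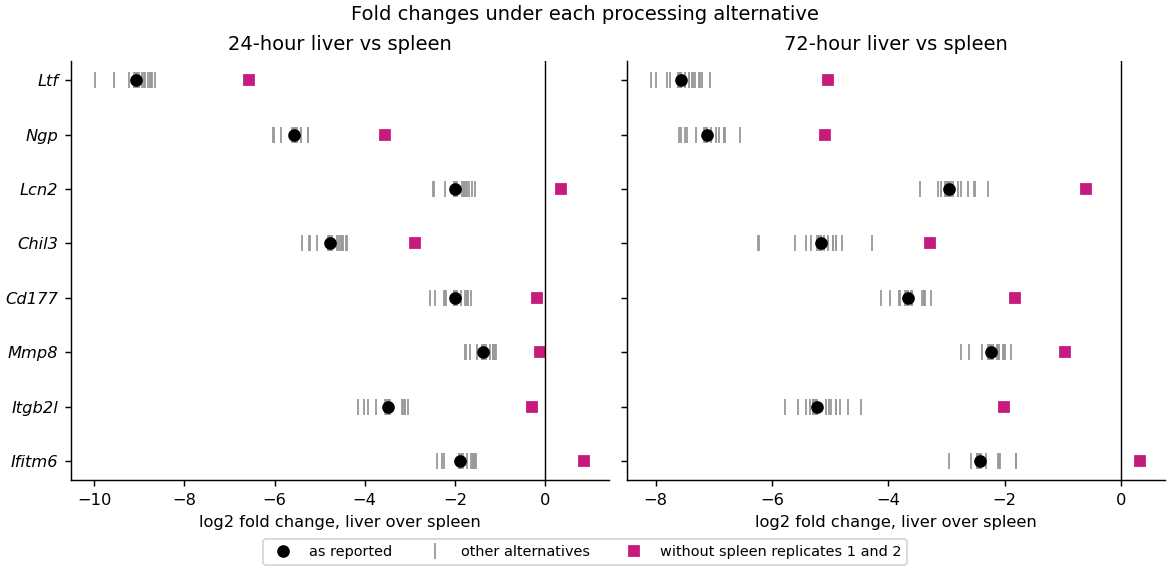
Log2 fold change, liver over spleen, of 8 of the 9 genes (Camp is left out because its values are bounds) under each processing alternative, at 24 hours (left) and 72 hours (right). Black circles are the values reported, grey ticks the other alternatives and pink squares the fit without spleen replicates 1 and 2. The squares lie to the right of every other value of the gene, and those of Lcn2 at 24 hours and of Ifitm6 at both times are above 0.

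The genes differed in the size of their fall, and so the make-up of the set differed between libraries. Ltf, Ngp and Camp, grouped after their values were seen, held 73.0%, 73.3% and 67.2% of the counts of the 9 genes in spleen replicates 1 to 3, in order. They held 12.9%, 10.3%, 12.04% and 9.93% in the 24-hour libraries. At 72 hours the shares were 5.66%, 7.41%, 7.61%, 27.7% and 14.7%, with 72-hour replicate 4 the highest of the liver libraries. The 95% Wilson interval, which covers counting error only, was 65.4% to 69.0% for spleen replicate 3, from 2569 counts, and 21.9% to 34.4% for 72-hour replicate 4, from 195 counts. Within a library this share does not depend on the scaling between libraries, and spleen replicate 3, whose summed counts were far below those of the other spleen libraries, was near them in this share. The ratio of Ltf to Lcn2 counts was likewise 4.23 to 5.07 in the spleen libraries, 0.0105 to 0.0571 at 24 hours and 0.0556 to 0.909 at 72 hours.

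**Figure D4:**
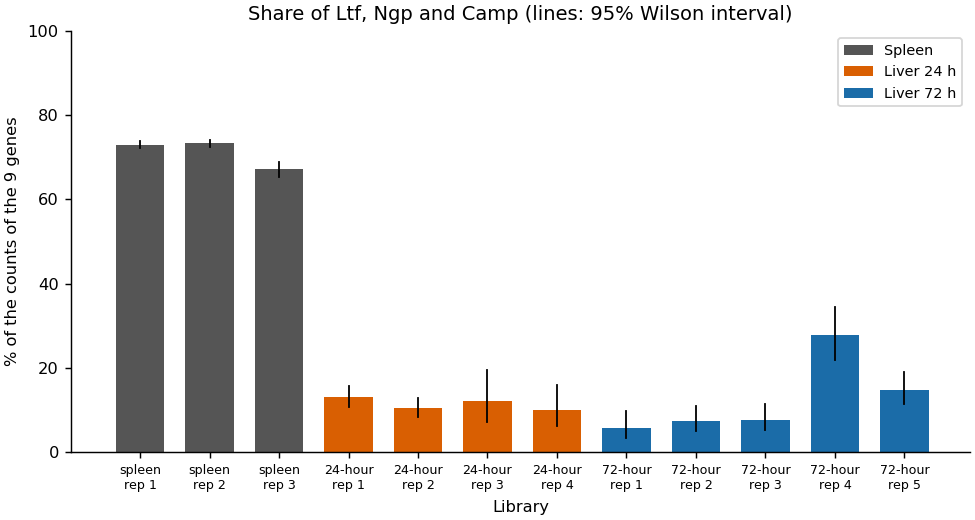
Share of the counts of the 9 genes that fell on Ltf, Ngp and Camp, in percent on the vertical axis, for each library on the horizontal axis. Lines are 95% Wilson intervals for counting error. The 3 spleen bars lie between 67.2% and 73.3% and the 9 liver bars between 5.66% and 27.7%.

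Per kilobase of annotated exon, Ngp had the highest level in splenic neutrophils, at 1125 ± 734 CPM per kb (SD, n = 3), followed by Ltf at 344 ± 246 and Camp at 155 ± 125. That order of 3 held in every spleen library. Camp exceeded Cd177 in 2 of 3 libraries, as did Cd177 over Chil3, Chil3 over Lcn2 and Lcn2 over Mmp8, so the order of these genes, at 84.7 to 155 CPM per kb, was not settled. Ifitm6 (60.9 ± 45.0) and Itgb2l (8.51 ± 6.61) came after Mmp8 in every library. In 24-hour neutrophils Mmp8 led, at 32.5 ± 24.0 CPM per kb (n = 4), followed by Cd177, Lcn2 and Ngp at 23.6 to 25.7, and none of these neighbours kept its order in all 4 libraries. At 72 hours Mmp8 led again at 18.2 ± 12.5 CPM per kb (n = 5), above Lcn2 in 3 of 5 libraries, and Ltf, second in the spleen, stood at 1.96 ± 1.49. Mmp8 and Lcn2, first and second in that order, were both called lower at 72 hours than in the spleen.

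Of 12 further genes with products in specific granules, 10 were tested, and 2 were called lower at 24 hours and 3 at 72 hours, none higher, with median log2 fold changes of -0.65 and -0.61. Cybb, the catalytic chain of the NADPH oxidase, fell from 192 ± 102 CPM (SD) in the spleen to 36.4 ± 14.4 at 24 hours and 18.3 ± 6.45 at 72 hours (edgeR adjusted p = 0.000453 and 7.76e-06). Lyz2, which encodes lysozyme, was 650 ± 382 CPM in the spleen and 164 ± 77.8 and 151 ± 32.2 in the livers (adjusted p = 0.00197 and 0.000718). Wfdc21 was called at 72 hours alone. Hp, Cyba, Itgam, Pglyrp1, Orm1, Slpi and Olfm4 were not called. Without spleen replicates 1 and 2, no gene of this list was called at 24 hours and Cybb was called at 72 hours (log2 fold change -2.03, adjusted p = 0.0449). In that fit Lyz2 had values of -0.37 and -0.49 (adjusted p = 0.755 and 0.77), and Wfdc21, at -0.82 and -2.09 with all libraries, turned to 2.13 and 0.87 (adjusted p = 0.202 and 0.774).

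Azurophil granule genes are transcribed at the promyelocyte stage, and of 9 listed only 3 were tested. Elane, Ms4a3 and Bpi had no count in any library, and Mpo and Ctsg at most 2. Prss57 was called lower at both times (log2 fold change -1.42 and -2.15) but shares 1157 exon bases with Fstl3 on the opposite strand, so its reads and those of Fstl3 cannot be told apart. Ctsc, a protease that activates azurophil enzymes, was higher at 24 hours (2.91 ± 0.72, adjusted p = 0.0117) and lower at 72 than at 24 hours (adjusted p = 0.0448). Neither was called against the spleen without spleen replicates 1 and 2, where Prss57 had values of -0.41 and -1.14 (adjusted p = 0.745 and 0.331), and Ctsc 4.54 at 24 hours (adjusted p = 0.065).

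Of the genes of gelatinase granules and secretory vesicles, the last to be made, 7 were tested and none was called lower than in the spleen at either time. Cd14, a co-receptor for lipopolysaccharide, rose from 5.89 ± 0.828 CPM in the spleen to 71.7 ± 18.3 at 24 hours and 65.8 ± 48.7 at 72 hours (adjusted p = 0.000458 and 0.000536), and Slc11a1, a metal transporter of the phagosome, was higher at 72 hours (1.20 ± 0.31, adjusted p = 0.0225). Mmp9, the gelatinase itself, was not called (-0.80 at 24 hours, adjusted p = 0.0571, and -0.57 at 72 hours, adjusted p = 0.232). Mmp25 was lower at 72 than at 24 hours (-1.23 ± 0.33, adjusted p = 0.0346). In the fit without spleen replicates 1 and 2, Cd14 had log2 fold changes of 3.40 and 3.29 with adjusted p-values of 0.0713 and 0.133, and Slc11a1 1.14 at 72 hours (adjusted p = 0.405), so neither was called.

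Among 7 transcription factors of granule genes, Cebpe, which is required for specific granules to form, was called lower at 24 hours (-3.0 ± 0.77, adjusted p = 0.0148) and at 72 hours (-2.26 ± 0.66, adjusted p = 0.0469). Its levels were 27.7 ± 15.6 CPM in the spleen, 3.31 ± 3.41 at 24 hours and 5.56 ± 6.11 at 72 hours. Without spleen replicates 1 and 2 it was not called, with values of -1.54 (adjusted p = 0.543) and -0.81 (adjusted p = 0.87). Cebpb, a C/EBP factor of emergency granulopoiesis, was higher at both times (2.82 ± 0.29 and 2.79 ± 0.28) and remained so in that fit (2.76 and 2.73), but shares 312 exon bases with Tmem189 on the opposite strand. Cebpd was higher at 24 hours (0.65 ± 0.21, adjusted p = 0.0488) and shares 562 exon bases with Spidr. Its value in that fit was 0.25 (adjusted p = 0.741). Spi1, the gene of PU.1, was not called.

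**Figure D5:**
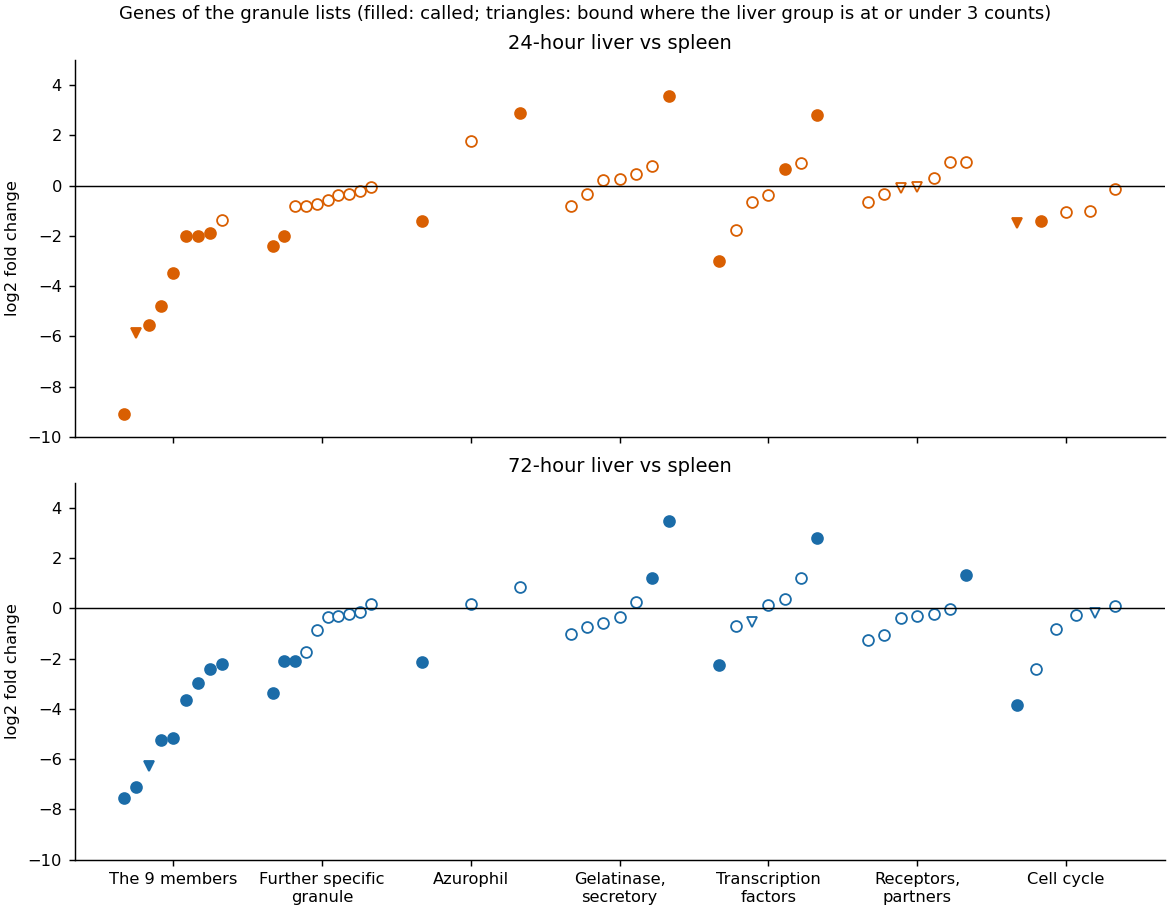
Log2 fold change, liver over spleen, of the tested genes of each list at 24 hours (top) and 72 hours (bottom). Each point is a gene, filled where it was called, and triangles are bounds where the liver libraries had 3 counts or fewer and the spleen mean was above that floor. The lowest values at both times belong to members, and the gelatinase and secretory vesicle genes have no filled point below 0.

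Of 7 tested receptors, partners and inhibitors of the members, none was called at 24 hours and 1 at 72 hours, Lrp1, a receptor that takes up lactoferrin and was higher (1.31 ± 0.39, adjusted p = 0.0477), though not without spleen replicates 1 and 2 (1.16, adjusted p = 0.53). Slc22a17, a receptor for lipocalin 2, had no count in any library. Itgb2, the paralog of Itgb2l, was not called (-0.64, adjusted p = 0.068 at 24 hours and -0.37, adjusted p = 0.4 at 72 hours), nor were Ifitm1, Ifitm2 and Ifitm3, the paralogs of Ifitm6, against the spleen. Chil1, a chitinase-like relative of Chil3, was not called against the spleen (0.66 and -0.34) and was lower at 72 than at 24 hours (-1.0 ± 0.28, adjusted p = 0.0463).

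Genes of other cell states were read beside these results. Of 6 tested cell cycle genes of dividing precursors, 2 were called lower at 24 hours and 1 at 72 hours. Mki67, by far the most counted of them, was not called (log2 fold change -0.12 and 0.07). Its levels were 1128 ± 762 CPM in the spleen, 1035 ± 203 at 24 hours and 1186 ± 230 at 72 hours. Spleen replicate 3 was its highest library, at 2008 CPM. Top2a, which untangles DNA in dividing cells, had 6 to 21 counts in the spleen and at most 1 at 24 hours, at least 2.79-fold lower, and Hmgb2 fell from 92.2 ± 49.9 to 34.6 ± 5.43 CPM at 24 hours. In the fit without spleen replicates 1 and 2, Hmgb2 was not called and Top2a did not pass the filter on low counts and was not tested. Of 8 neutrophil markers, 2 were called lower than in the spleen at 24 hours and 3 at 72 hours, none higher. Csf3r, Cxcr2, Retnlg, Mmp9 and Mxd1 were not called against the spleen. Csf3r was higher at 72 than at 24 hours (0.77 ± 0.19, edgeR adjusted p = 0.0241). S100a8 and S100a9, the chains of calprotectin, were lower at both times (S100a9 2748 ± 2087 CPM in the spleen, 420 ± 233 at 24 hours and 753 ± 111 at 72 hours). In the fit without spleen replicates 1 and 2 both turned positive, S100a8 at 0.54 and 1.76 and S100a9 at 0.31 and 1.15 at 24 and 72 hours. Ly6g, whose product was used in the sort, was lower at 72 hours with all libraries, but not in that fit (-1.09, adjusted p = 0.767).

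The 8 neutrophil markers summed to 1893 to 7142 CPM in the spleen, 1291 to 2821 at 24 hours and 2221 to 3002 at 72 hours, and markers of the labelled cell type were thus counted in every library. The 7 hepatocyte markers summed to 2.32 to 6.11 CPM in the spleen, 14.9 to 19.8 at 24 hours and 3.24 to 25.4 at 72 hours, with Ttr at 0. Most of the 24-hour sum was Apoa2, at 12.7 to 19.6 CPM, and every other hepatocyte marker had at most 2 counts in any 24-hour library. At 72 hours Alb had 13 and 33 counts in replicates 2 and 3 and at most 1 in the others. Apoa2 was called higher at 24 hours (log2 fold change 2.07, edgeR adjusted p = 0.00888), but not without spleen replicates 1 and 2 (1.46). The 5 monocyte markers summed to 9.97 to 42.2 CPM in the spleen, 4.24 to 12.6 at 24 hours and 4.34 to 8.44 at 72 hours. Ccr2, F13a1 and Ms4a4c had at most 3 counts in any library, and Ly6c2 was called lower at both times with all libraries, but at neither time without spleen replicates 1 and 2 (-1.10 and -1.50, adjusted p = 0.58 and 0.556). Macrophage markers summed to 80.5 to 121 CPM in the spleen, 126 to 179 at 24 hours and 117 to 180 at 72 hours, with C1qa and Clec4f at 0. Most of that sum was Csf1r, at 92.8, 141 and 137 CPM on average in the 3 groups, which shares 873 exon bases with Hmgxb3 on the opposite strand, so that its reads cannot be told apart from those of Hmgxb3. Eosinophil markers summed to 12.1 to 14.5 CPM in the spleen, 6.36 to 16.8 at 24 hours and 14.2 to 31.3 at 72 hours, with Prg2 and Ear1 at 0. Of these Siglecf was called higher at 72 hours (8.84 ± 1.28 CPM in the spleen and 24.1 ± 8.34 at 72 hours, adjusted p = 0.0374; 0.53 without spleen replicates 1 and 2), and Ear2, with 9 to 13 counts in the spleen and at most 1 at 72 hours, was called lower with all libraries (at least 2.79-fold) and was not tested in that fit. T and NK cell and erythroid markers summed to at most 7.07 and 5.84 CPM in any library, with Cd3e, Trbc2, Hbb-bs, Hba-a1 and Hba-a2 at 0. B cell markers summed to 29.7 to 64.0 CPM and endothelial markers to 27.4 to 69.8 across all libraries, with Cdh5 and Kdr at 0. The part of these cells in the results was not tested.

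The genes most like the set were sought by the mean absolute difference, over the 12 libraries, between a gene's centred log2 CPM and the mean of the 9 members. The nearest was I830127L07Rik, at 0.29, with levels of 32.0 ± 24.0 CPM in the spleen, 0.465 ± 0.601 at 24 hours and 0.130 ± 0.290 at 72 hours. It was followed by Haus1 (0.51), Adpgk (0.52), Serpinb1a (0.54) and Hc (0.55). Haus1, Adpgk and Hc share 129, 194 and 76 exon bases with Atp5a1, Bbs4 and Gm13449 on the opposite strand, and their reads cannot be told apart from those of their partners. Serpinb1a, an inhibitor of neutrophil serine proteases, fell from 35.3 ± 24.5 CPM in the spleen to 2.82 ± 2.49 and 0.726 ± 0.581 in the livers. The members themselves lay 0.48 (Itgb2l) to 1.45 (Ltf) from their own mean.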

How the data were processed

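Reads of 12 libraries of sorted neutrophils, made with a stranded kit, were aligned by the authors to GRCm38 (STAR 2.7.9a, per the submitters' processing notes) and counted per gene with HTSeq-count. The authors deposited raw counts, 48709 gene rows and 5 summary rows, the latter left out of library sizes and tests. Between 96.8% and 97.3% of uniquely aligned reads lay on no gene, and unaligned reads are given in the report. The filter (run in R 4.3.3) kept genes over 1 CPM in 3 or more libraries, TMM factors scaled the libraries, and edgeR 4.0.16 compared the 3 pairs of groups (quasi-likelihood F test, 1 fit over all libraries, Benjamini-Hochberg adjustment over all tested genes). The SE of a log2 fold change is the change over the square root of F. The tests were tried on simulated counts. CPM values are scaled by TMM, and log2 CPM uses a prior count of 2. Calls required an adjusted p under 0.05 and a log2 fold change of 0.5 or more in size.

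Identifiers were matched to GENCODE M21 (48349 of 48709 rows) and promoter sequences were taken from RefSeq (GRCm38.p6); 9 of 9 members matched. The members and lists were chosen with earlier results of these data known, so no set test was run and no p was adjusted over a list. Other genes named were those called in at least 1 comparison, near paralogs and the 5 nearest in profile, and genes of the lists beyond these were given for their counts or values. Alternatives were DESeq2 1.42.0 (size factors, Wald test), upper-quartile scaling, limma-voom (limma 3.58.1), other filters and limits, fits of 2 groups, a replicate block, genes without an opposite-strand gene, and leaving out libraries. Depth, from 1267089 to 3017403 counts per library, leaves large counting error at a few CPM.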

Additional observations from a re-analysis of the deposited data

Results flagged for a closer look

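The level of Mmp8 in 72-hour replicate 5, 98.0 CPM, stood apart from the other 72-hour libraries, which lay between 25.7 and 37.5 CPM. The gap to the nearest of them was 0.836 of the range of the group, above Dixon's critical value of 0.71 for 5 samples. In all, 18 groups of values were put to this rule, which passed over Camp at 24 hours, where every value was 0. Of these 1 was flagged, and chance flags about 1 in 20.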

How the results depend on the processing

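Of 698 comparisons of the 27 results for single genes with an alternative, 634 kept direction and side of the threshold, 47 lost the call, 12 gained it and 5 turned. Ltf and Ngp were called lower than in the spleen at both times under every alternative run. At 24 hours, 8 of the 9 genes were called as reported, against 1218 of all 12488 genes in either direction. With DESeq2's Wald test (1544 of 12488 genes over all) and with limma-voom (1200 of 12488) 5 were called. With spleen replicates 1 and 2 summed as 1 library 5 were called (633 of 12141). On leaving out 1 library the count was 4 to 9. It was 4 without spleen replicate 1 (575 of 12140). It was 5 without spleen replicate 2 (611 of 12218), 24-hour replicate 3 (1002 of 12342) or 24-hour replicate 4 (902 of 12356). Without spleen replicates 1 and 2 together, log2 fold changes ran from -6.56 (Ltf) to 0.87 (Ifitm6), Camp aside. At 72 hours, 9 genes were called (666 of 12488 over all). They became 8 with limma-voom (759 of 12488) and 7 without 72-hour replicates 2 and 3 together (287 of 12057). On leaving out 1 library 8 to 9 were called (314 to 835 over all). Without spleen replicates 1 and 2 together, log2 fold changes ran from -5.09 (Ngp) to 0.33 (Ifitm6), Camp aside. Between the liver groups, 0 genes became 5 with no filter on low counts (823 of 20019 over all). On leaving out 1 library 0 to 1 were called. The 1 was Cd177, without spleen replicate 3 (796 of 12205 over all) or 24-hour replicate 3 (449 of 12342). The values that turned were Lcn2 and Ifitm6 at 24 hours and Ifitm6 at 72 hours without spleen replicates 1 and 2 (0.36, 0.87 and 0.33), and Chil3 between the liver groups with a replicate block (0.20) and without 24-hour replicate 2 (0.22; its range on leaving out 1 library was -1.46 to 0.22). The cause was not tested.

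Equal replicate numbers showed no clear pairing of the libraries. Of 10 pairs of the same number, 1 had a correlation of deviations above 0.1 (range -0.12 to 0.13), and not every library correlated best with its own number. Spleen replicates 1 and 2 did deviate together with 24-hour replicates 1 and 2 (0.0941 to 0.115). Spleen replicate 3 did so with 24-hour replicates 3 and 4 (0.130 and 0.157). The remaining pairs of spleen and 24-hour libraries were negative (-0.153 to -0.0827). With so few libraries in a group, these correlations cannot exclude that equal numbers share an animal or a day. With a replicate block, 9, 9 and 2 genes were called at 24 hours, at 72 hours and between the liver groups (Ngp and Cd177). Over all 12488 genes, 1302, 874 and 599 were called with that block. Itgb2l was not tested where genes with an opposite-strand gene were left out. Both settings on spleen replicates 1 and 2 were chosen after seeing the data. Depth limits Camp and Itgb2l, with 0 to 11 counts in the livers, and Ltf at 24 hours, with 1 to 8.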
